A study of Mus musculus with 4 samples.

Results

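The subunits of oxidative phosphorylation were examined by the genome that encodes them in RNA-seq of mouse gastrocnemius muscle. Members were the genes whose symbol matched a fixed name pattern for subunits of complexes I to V (numbered Ndufa, Ndufb, Ndufc, Ndufs and Ndufv genes, Sdha to Sdhd, the Uqcr genes, Cox4 to Cox8 genes, the Atp5 genes, and the protein-coding mt- genes). The pattern found 99 of the 22252 genes, of which 86 were nuclear-encoded and 13 mitochondrially encoded. The pattern reads symbols and no measured value. It leaves out Ndufab1, the acyl carrier protein of complex I, which is counted below with the electron carriers (changes with obesity of -0.36 and -0.28 on the log2 scale in the 2 genotypes). It also leaves out Cyc1, cytochrome c1, a core subunit of complex III, so the complex III sums, ratios and medians lack it. The pattern also took in 4 genes that are not structural subunits or are gene copies, namely Cox7a2l, a factor of respiratory supercomplexes, Ndufa4l2, a paralog of Ndufa4, and the copies Cox5b-ps and Ndufb11b.

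The respiratory chain passes electrons from NADH through complex I, or from succinate through complex II, to ubiquinone, complex III, cytochrome c and complex IV, and ATP synthase, complex V, uses the resulting proton gradient to make ATP. The mitochondrial genome encodes core membrane subunits of complexes I, III, IV and V as long polycistronic transcripts that are then cut into mRNAs, whereas complex II and all other subunits are encoded in the nucleus, translated in the cytosol and imported. In skeletal muscle, oxidative fibres hold more of this machinery than the fast glycolytic fibres that make up most of the gastrocnemius.

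The groups were lean (Lep+/+) and ob/ob (Lep ob/ob, leptin-deficient and obese) male mice of the C57BL/6J strain at 7 weeks of age, each with intact muscle glucocorticoid receptor (GRf/f) or with its loss in muscle (GRmKO). All mice, controls included, carried floxed alleles of Nr3c1, the GR gene. In GRmKO mice, Cre under the Acta1 promoter, active in myofibers, removed exon 3, which encodes part of the DNA-binding domain, so other cells of the muscle kept GR. Each group was 1 library from the pooled RNA of 3 mice, and no difference could be set against the spread between mice. Differences are therefore given as values with no test, and intervals are Wilson 95% intervals that cover counting error only.

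Expected counts summed to between 19897754 and 20959781 in a library, and levels are given as CPM, the counts scaled to a common library total. A count of 3 corresponded to 0.143 to 0.151 CPM. Nr3c1 stood at 125 CPM in lean GRf/f, 67.0 in lean GRmKO, 102 in ob/ob GRf/f and 39.1 in ob/ob GRmKO, lower with the deletion in both backgrounds. Fast fibre markers, defining for this muscle, summed to 98188 to 118292 CPM, and the defining brown adipocyte marker Ucp1 was at 0 to 0.145 CPM. Slow fibre markers, erythroid markers and macrophage markers moved between the libraries, and their values are given beside the obesity comparison. In bulk muscle, fewer cells of a type and less RNA per cell cannot be told apart.

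Genes with a mean of at least 50 expected counts over the 4 libraries and counts above 0 in each were compared. Of the members, 94 of 99 met this limit, 81 nuclear-encoded and all 13 mitochondrially encoded, out of 11141 genes. The other 5 were Cox6b2, Cox7b2 and Cox8c, paralogs known from testis, and the copies Cox5b-ps and Ndufb11b. Cox6b2 had 19.6, 10.1, 3.60 and 0 expected counts in lean GRf/f, lean GRmKO, ob/ob GRf/f and ob/ob GRmKO. Cox8c had 15.1 and Ndufb11b 4.01 in lean GRf/f, with Cox7b2 between them, and these 3 genes had 0 in the other libraries, while Cox5b-ps had at most 5.90.

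The 13 mitochondrial mRNAs made up a large and nearly equal share of all counts in every library. It was 19.6% in lean GRf/f, 19.8% in lean GRmKO, 20.1% in ob/ob GRf/f and 20.2% in ob/ob GRmKO. The nuclear-encoded members together took 2.58%, 2.59%, 2.17% and 2.15% in the same order, so both ob/ob libraries were below both lean libraries. The ratio of the summed mitochondrially encoded to the summed nuclear-encoded CPM, which does not depend on library scaling, was 7.57 (7.55 to 7.59) in lean GRf/f and 7.64 (7.62 to 7.67) in lean GRmKO. It was 9.24 (9.22 to 9.27) in ob/ob GRf/f and 9.41 (9.38 to 9.44) in ob/ob GRmKO. The ratio was thus higher in the ob/ob than in the lean libraries by 0.29 on the log2 scale in GRf/f and by 0.30 in GRmKO, and it differed by 0.01 and 0.03 between genotypes.

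The shift in the ratio was carried by the shorter nuclear transcripts. When only nuclear-encoded members with a listed transcript of at least 1500 bases were summed, the ratio changed with obesity by -0.03 in GRf/f and by -0.01 in GRmKO, a choice made after the values had been seen. The relation of the changes to transcript length is described in full further on.

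**Figure D1:**
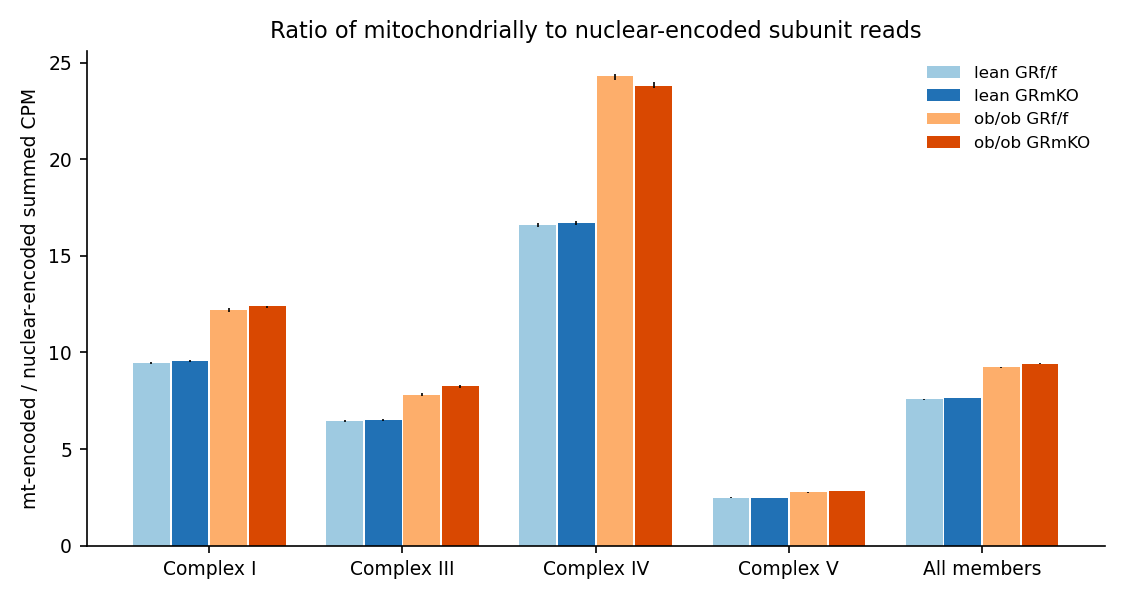
Summed CPM of mitochondrially encoded over summed CPM of nuclear-encoded subunits (y axis, ratio without unit, from 0) for complexes I, III, IV and V and for all members, 1 bar per library and 95% counting intervals as error bars. Both ob/ob bars stand above both lean bars in each complex, most in complex IV (24.3 and 23.8 against 16.6 and 16.7) and least in complex V.

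The ratio differed in size between complexes. For complex IV, which reduces oxygen, it was 16.6 and 16.7 in the lean libraries (GRf/f first) and 24.3 and 23.8 in the ob/ob libraries. For complex I, the NADH dehydrogenase, it was 9.46 and 9.56 against 12.2 and 12.4, and for complex III, the cytochrome bc1 complex, 6.44 and 6.51 against 7.80 and 8.24. For complex V it was 2.49 and 2.46 against 2.76 and 2.82. In each of these complexes the ob/ob libraries lay above the lean libraries in both genotypes. Complex II, succinate dehydrogenase, has no mitochondrially encoded subunit, and its 4 nuclear genes summed to 1394 and 1407 CPM in lean and 1363 and 1393 CPM in ob/ob mice, nearly the same in all libraries.

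The 13 mitochondrial mRNAs were compared next, to see whether they moved together. Levels in CPM, always in the order lean GRf/f, lean GRmKO, ob/ob GRf/f and ob/ob GRmKO, were 50923, 53091, 54903 and 56632 for mt-Co1, the catalytic subunit of complex IV and the most abundant member. They were 20249, 20473, 19148 and 19507 for mt-Co2, and 20442, 20681, 18565 and 18069 for mt-Co3, the other complex IV core subunits. With obesity, mt-Co1 was thus higher by 0.11 (GRf/f) and 0.09 (GRmKO) on the log2 scale, and mt-Co3 was lower by -0.14 and -0.19, although both lie on the same strand.

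Cytochrome b of complex III, mt-Cytb, had 17306, 17658, 18483 and 19503 CPM. The ATP synthase subunit a, mt-Atp6, had 21141, 20804, 21519 and 21313 CPM, and mt-Atp8, which shares 43 bases with it, had 2762, 2785, 2801 and 2830.2 CPM. All 3 were slightly higher in the ob/ob libraries, by 0.02 to 0.14 on the log2 scale.

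Of the complex I subunits, mt-Nd1 had 15951, 15930.0, 15249 and 15553 CPM, and mt-Nd2 had 9897, 9868, 10122 and 9478. The members mt-Nd4 (19999, 19601, 22398 and 22037 CPM) and mt-Nd5 (9817, 10016, 10829 and 10714 CPM) were higher in both ob/ob libraries, by 0.10 to 0.17. The mRNA of mt-Nd6, the only member on the opposite strand, had 2232, 2201, 2256 and 2301 CPM, with changes of 0.02 and 0.06. None of these 5 genes was past the 1.5-fold limit in any comparison.

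The short mRNAs mt-Nd3 and mt-Nd4l went in opposite directions. The level of mt-Nd3 was 2939, 2860.2, 2087 and 1811 CPM, lower in both ob/ob libraries by -0.49 (-0.51 to -0.48) in GRf/f and -0.66 (-0.68 to -0.64) in GRmKO. It was the only mitochondrially encoded member past a 1.5-fold change, in GRmKO. The level of mt-Nd4l was 1875, 1718, 2174 and 2141 CPM, higher by 0.21 and 0.32. The sequences of mt-Atp8, mt-Nd4l and mt-Nd3 are shown because these are the 3 shortest members and differ in their change, and because reads from shared bases cannot be assigned to a single gene. They are from GENCODE on GRCm38, 5′ to 3′, with capitals for the bases that the neighbouring gene shares. On the mitochondrial chromosome (M) they lie on the plus strand, mt-Atp8 at 7766 to 7969 (shared with mt-Atp6), mt-Nd4l at 9877 to 10173 (shared with mt-Nd4), and mt-Nd3 at 9459 to 9806, of which the first 300 of 348 bases are given. Each is a single protein-coding exon.
mt-Atp8: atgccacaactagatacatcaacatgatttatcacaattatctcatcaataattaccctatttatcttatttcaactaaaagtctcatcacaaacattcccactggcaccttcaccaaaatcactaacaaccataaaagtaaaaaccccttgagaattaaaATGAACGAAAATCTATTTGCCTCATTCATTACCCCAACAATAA
mt-Nd4l: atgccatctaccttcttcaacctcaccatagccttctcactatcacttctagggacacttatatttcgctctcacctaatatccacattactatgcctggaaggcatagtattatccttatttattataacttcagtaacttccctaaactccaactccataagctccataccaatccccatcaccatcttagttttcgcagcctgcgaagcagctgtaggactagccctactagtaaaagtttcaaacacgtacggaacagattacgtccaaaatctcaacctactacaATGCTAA
mt-Nd3: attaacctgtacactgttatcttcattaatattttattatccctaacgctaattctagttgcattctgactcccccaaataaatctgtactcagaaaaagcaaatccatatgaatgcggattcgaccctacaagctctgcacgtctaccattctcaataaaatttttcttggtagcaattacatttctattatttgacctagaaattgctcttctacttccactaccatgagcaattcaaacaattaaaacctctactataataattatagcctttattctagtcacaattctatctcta

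Among these, the 204-base mt-Atp8 changed by 0.02 in both obesity comparisons, the 297-base mt-Nd4l was higher and the 348-base mt-Nd3 lower. Over all 13, length and change with obesity had a Spearman correlation of 0.41 in GRf/f and 0.29 in GRmKO, as a description over genes of the same libraries. The transcript with the lower value, mt-Nd3, shares no base with another member.

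**Figure D2:**
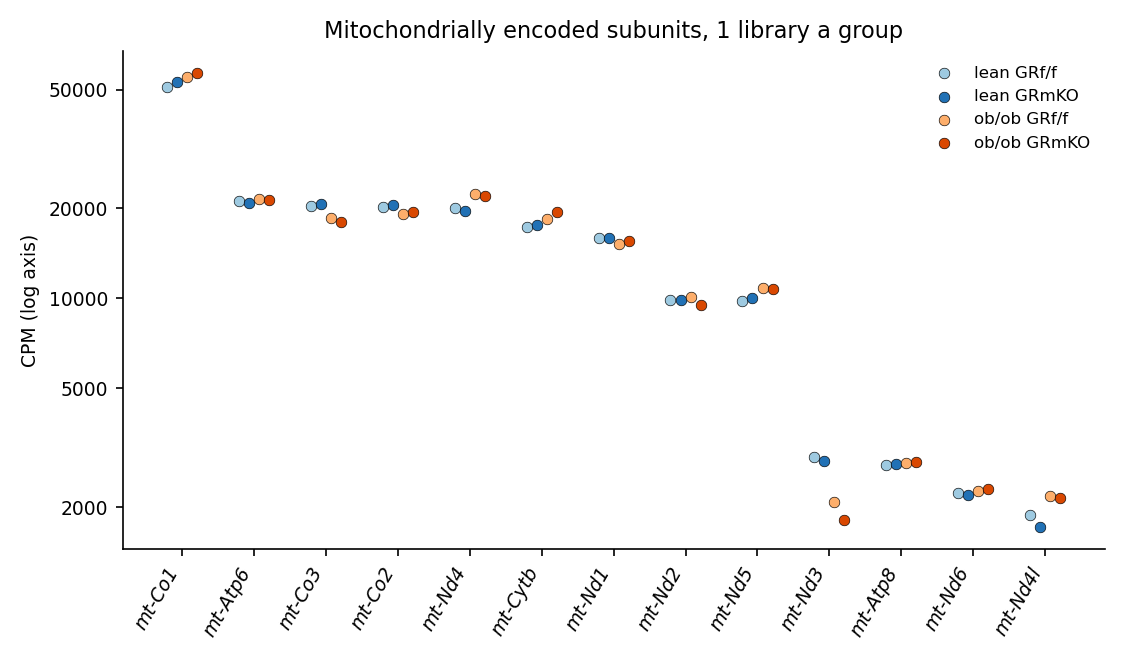
CPM of each mitochondrially encoded subunit (y axis, log scale) in the 4 libraries, 1 point per library, ordered by level in lean GRf/f. The points of a gene nearly coincide except for mt-Nd3, where both ob/ob points lie below both lean points, and mt-Nd4l, where they lie above.

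Over the 13 mitochondrially encoded members the median log2 change with obesity was 0.03 in both genotypes, and 9 of 13 (GRf/f) and 8 of 13 (GRmKO) were higher. Over the 81 nuclear-encoded members the median was -0.41 in both genotypes, that is -24.7% and -24.9%. Over all tested genes the median was -0.11 in GRf/f and -0.20 in GRmKO, so relative to it the nuclear-encoded members stood at -0.30 and -0.22, and the mitochondrially encoded members at 0.13 and 0.23. Only 9 nuclear-encoded members in GRf/f and 8 in GRmKO were higher in ob/ob mice, against 37.6% and 32% of all tested genes.

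Called here means a CPM difference of at least 1.5-fold. In GRf/f, 20 of 81 nuclear-encoded members were called lower with obesity and 0 higher, against 11.4% of all tested genes called lower and 5.1% called higher. In GRmKO, 23 were called lower and 0 higher, against 19.7% and 4.79%. The libraries compared differ between the genotypes, and 16 members were called lower in both, which is 80% of the 20 members called in GRf/f and 66.7% of the 24 called in GRmKO, mt-Nd3 included. The same overlap over all tested genes was not counted, so it cannot be read as particular to these members. With the scaling factors of edgeR (TMM), the counts called lower were 9 and 8, and the share of all tested genes called lower and higher was 7.75% and 7.76% in GRf/f and 11.5% and 9.54% in GRmKO. The direction of the nuclear median held under each of the 5 scalings tried.

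**Figure D3:**
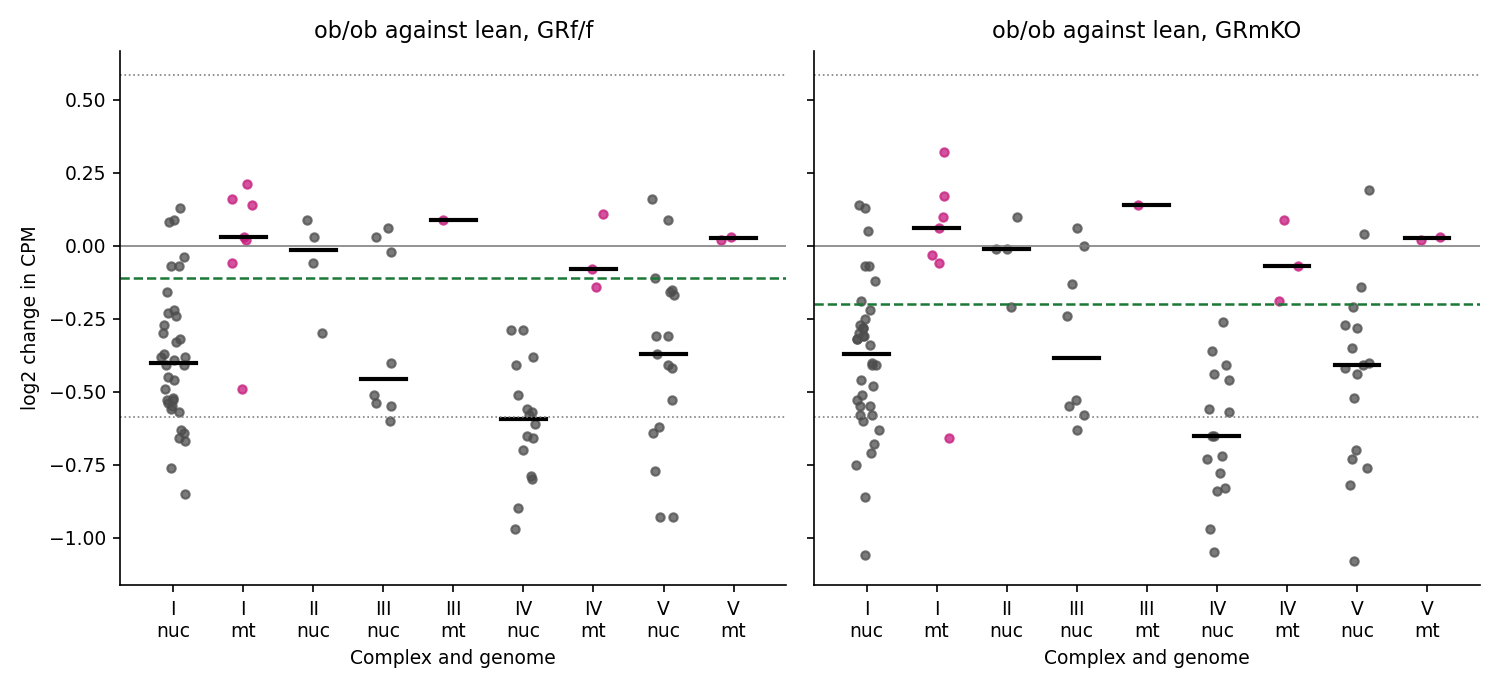
log2 change in CPM of each tested member, ob/ob against lean (y axis), by complex and genome (x axis, nuc nuclear-encoded in grey, mt mitochondrially encoded in pink), in GRf/f and GRmKO. Short black lines are medians, the dashed green line is the median of all tested genes and dotted lines mark a 1.5-fold difference; nuclear-encoded members of complex IV lie lowest and all 4 of complex II lie at -0.30 or above.

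Complex IV showed the largest nuclear changes on the CPM scale. All 16 tested nuclear-encoded members were lower with obesity in both genotypes, with a median of -0.59 in GRf/f and -0.65 in GRmKO, and 8 and 9 of them were called lower. Of all tested genes, 11.4% and 19.7% were called lower. These members also had the shortest median transcript, 632 bases, against 714 in complex V, 745 in complex I, 955 in complex III and 2065.5 in complex II. Relative to genes of the same length class, described further on, Ndufc1 of complex I was the only nuclear-encoded member past a 1.5-fold difference. Cox8b, the heart and muscle form of subunit 8, had 412, 462, 211 and 259 CPM, lower in both ob/ob than in both lean libraries, by -0.97 (-1.02 to -0.91) and -0.84 (-0.89 to -0.79). Cox8a, the form of most other tissues, had 74.4, 68.7, 48.8 and 41.6 CPM, also lower in both.

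Cox7a1, the muscle form of subunit 7a, had 238, 250, 137 and 128 CPM, and Cox7a2, its partner in other tissues, 177, 164, 94.7 and 92.6 CPM. Their changes were -0.80 and -0.97 for Cox7a1, and -0.90 and -0.83 for Cox7a2. Cox7c, at 392, 394, 226 and 229 CPM, changed by -0.79 and -0.78. The lowest-expressed member, Cox4i2, a hypoxia-linked form of subunit 4, had 4.22, 5.06, 2.68 and 2.45 CPM, so that its changes of -0.66 (-1.15 to -0.18) and -1.05 (-1.54 to -0.58) have wide counting intervals.

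Other complex IV members were called in 1 or both genotypes. Cox7b (443, 430, 283 and 289 CPM) was past the limit in GRf/f, Cox6a1 (56.4, 55.7, 39.7 and 33.7 CPM) and Cox6c (282, 293, 189 and 187 CPM) in GRmKO, and Ndufa4, now placed in complex IV, in both (334, 331, 206 and 211 CPM). Each had both ob/ob values below both lean values. The muscle form of subunit 6a, Cox6a2, the most abundant nuclear-encoded complex IV gene (1078, 1194, 884 and 998 CPM), and Cox5b (514, 517, 420 and 388 CPM) had the smallest changes of the complex in GRf/f, -0.29 for both, and changed by -0.26 and -0.41 in GRmKO. Their mitochondrially encoded partners, mt-Co1 to mt-Co3, had a median of -0.08 and -0.07.

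In complex V, medians differed between the catalytic head and the small membrane subunits, and so did transcript lengths. Median lengths were 1060 bases for the head and central stalk, 714 for the c ring and 544 for the peripheral stalk and membrane members. The 5 head and central stalk members had medians of -0.15 and -0.14, the 3 genes of the c ring, the proton rotor, -0.37 and -0.44, and the 9 peripheral stalk and membrane members -0.53 and -0.42. The alpha subunit gene Atp5a1 (1900, 1830.2, 2123 and 2090 CPM) and the beta subunit gene Atp5b (2605, 2602, 2776 and 2679.0 CPM) were the only tested nuclear-encoded members of complex V that were higher, by 0.16 and 0.09 in GRf/f and 0.19 and 0.04 in GRmKO. Both belong to the ATP-forming head.

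The smallest head subunit, epsilon (Atp5e, 308, 311, 161 and 147 CPM), was lower by -0.93 (-0.99 to -0.87) and -1.08 (-1.14 to -1.02), more than any other complex V member in GRmKO. Atp5md, a small membrane subunit at the dimer interface, had 281, 276, 148 and 156 CPM and changes of -0.93 and -0.82. Atp5l, subunit g of the membrane part, had 420, 399, 246 and 245 CPM, and Atp5j2 and Atp5mpl, other small membrane subunits, changed by -0.64 and -0.62 in GRf/f and -0.73 and -0.76 in GRmKO. These 5 of the 17 tested nuclear-encoded members of the complex were called lower in both genotypes. Of all tested genes, 11.4% in GRf/f and 19.7% in GRmKO were called lower.

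In complex I, the 28 accessory members had medians of -0.48 and -0.43 and the 7 nuclear-encoded core members, which hold the NADH and iron-sulfur sites, -0.16 and -0.12. The accessory members had a median transcript length of 670 bases and the core members 1046 bases. Of the 36 tested nuclear-encoded members of the complex, 6 were called lower in GRf/f and 7 in GRmKO. Of all tested genes, 11.4% and 19.7% were called lower. Accessory members accounted for all 6 members called lower in GRf/f and for 6 of the 7 in GRmKO. The other was Ndufa4l2, counted with complex I here although it is not a structural subunit. Ndufc1, a small membrane subunit (66.3, 74.5, 36.7 and 35.7 CPM), had the lowest values, -0.85 (-0.98 to -0.73) and -1.06 (-1.19 to -0.93).

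Ndufb4 (287, 287, 169 and 171 CPM), Ndufc2 (116, 107, 72.9 and 65.9 CPM) and Ndufa7 (93.4, 101, 59.0 and 62.9 CPM), further accessory subunits, were called lower in both genotypes, with both ob/ob values below both lean values. Ndufa3 and Ndufv3 passed the limit in GRf/f with changes of -0.63 and -0.64, and had -0.55 and -0.51 in GRmKO. Ndufb9 and Ndufb11 passed it in GRmKO with -0.60 and -0.63, and had -0.53 and -0.45 in GRf/f. Ndufv1, the core subunit that binds FMN and NADH (276, 273, 303 and 302 CPM), was highest among the nuclear-encoded members of the complex, at 0.13 (0.08 to 0.18) and 0.14 (0.09 to 0.20).

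In complex III, the 3 nuclear-encoded core members in the list, which lacks Cyc1, had medians of 0.03 and 0.00, and the 5 accessory members -0.54 and -0.55. Their median transcript lengths were 1653 and 535 bases. Uqcr10 (213, 223, 141 and 155 CPM) was called lower in GRf/f at -0.60, and Uqcrq (236, 227, 162 and 147 CPM) and Uqcrh (212, 220, 145 and 147 CPM) in GRmKO at -0.63 and -0.58. That was 1 and 2 of the 8 tested nuclear-encoded members, against 11.4% and 19.7% of all tested genes called lower. Uqcrc1, a core subunit (714, 694, 746 and 721 CPM), was higher by 0.06 in both. In complex II, Sdhb, the iron-sulfur subunit (397, 436, 322 and 377 CPM), was lowest at -0.30 and -0.21, and Sdha, the flavoprotein (675, 644, 721 and 691 CPM), highest at 0.09 and 0.10. No complex II member was called.

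The medians of the nuclear-encoded members followed transcript length, and the same order was seen in genes outside the list. The listed transcripts of nuclear-encoded members had a median length of 714 bases, against 3008 bases over all tested genes. With obesity, nuclear-encoded members under 600 bases had a median of -0.57 in GRf/f and -0.56 in GRmKO (28 genes), those from 600 to under 900 bases -0.41 and -0.41 (24 genes), those from 900 to under 1500 bases -0.23 and -0.26 (16 genes), and those of at least 1500 bases -0.02 and 0.00 (13 genes). Tested genes outside the list had medians of -0.70 and -0.78 under 600 bases (119 genes), -0.47 and -0.51 from 600 to under 900 bases (375 genes), -0.26 and -0.35 from 900 to under 1500 bases (1205 genes) and -0.07 and -0.15 at 1500 bases or more (9348 genes). In each class the nuclear-encoded subunits lay above the other genes. Against outside genes with a mean of at least 2000 counts they lay above in the 3 shorter classes and below at 1500 bases or more, where these 897 genes had medians of 0.07 and 0.05. Single members departed from the order, such as Uqcrq (1521 bases, -0.54 and -0.63), Ndufs4, an accessory subunit (1698 bases, -0.49 and -0.41), and Ndufc1 (1249 bases), among the lowest of all.

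Of the members under 600 bases, 13 of 28 (46.4%) were called lower in each genotype, against 62.2% and 70.6% of the other genes of that length. Set against the median of genes outside the list in their own length class, the nuclear-encoded members had a median of 0.09 in GRf/f and 0.13 in GRmKO, the opposite sign to the uncorrected medians, and 1 member was past a 1.5-fold difference in each. In GRf/f and GRmKO that member was Ndufc1, at -0.59 and -0.71. Cox8b, at -0.97 and -0.84 on the CPM scale, stood at -0.27 and -0.06 within its class, and Atp5e at -0.23 and -0.30.

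Across the 81 nuclear-encoded members, length and change with obesity had a Spearman correlation of 0.70 in GRf/f and 0.60 in GRmKO, and across the 11047 tested genes outside the list 0.30 and 0.25. These are descriptions over genes of the same libraries, which are not independent. With the loss of GR the correlation over these members was -0.04 (lean) and -0.16 (ob/ob), and GC content had correlations of 0.03 and -0.06 with the obesity changes. In complexes I, III and V, core or head members had longer median transcripts than accessory or membrane members. The part of transcript length in those contrasts, and in the result beyond these values, was not tested.

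**Figure D4:**
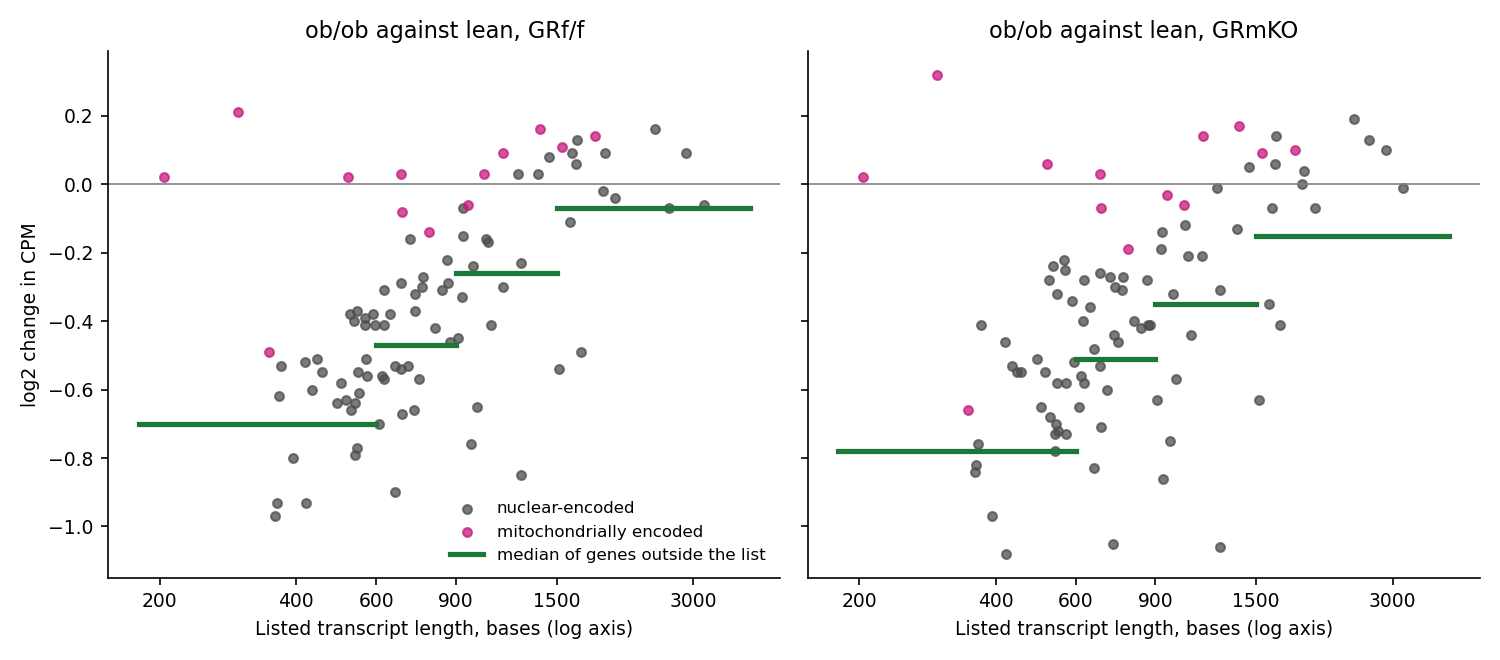
log2 change in CPM of each tested member, ob/ob against lean (y axis), against listed transcript length in bases (x axis, log scale), in GRf/f and GRmKO. Green bars are the medians of genes outside the list in 4 length classes with bounds at 600, 900 and 1500 bases; nuclear-encoded members (grey) rise from left to right with the bars, while most mitochondrially encoded members (pink) stay near 0 at every length.

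All 13 mitochondrially encoded members lay above the median of genes outside the list in their length class, by 0.17 to 0.91 in GRf/f and by 0.12 to 1.10 in GRmKO. The 4 under 600 bases had medians of 0.02 and 0.04, against -0.70 and -0.78 for other genes of that length, and mt-Nd3 was the nearest of the 4 to its class, at 0.21 and 0.12 above it. The difference between the genomes was thus largest under 600 bases, while at 1500 bases or more the medians were 0.13 and 0.10 for the 2 mitochondrially encoded members and -0.02 and 0.00 for the 13 nuclear-encoded ones.

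Markers of fibre types and of other cells moved with obesity as well. Of 9 slow fibre markers 8 were tested, all were called higher in both genotypes with a median of 1.37, and their summed level was 489 and 652 CPM in lean and 1089 and 1557 CPM in ob/ob mice. Myh2, the myosin of oxidative type IIa fibres, had 662, 508, 1403 and 1722 CPM, while the 10 fast fibre markers had medians of -0.01 and 0.08. The fast fibre markers were split, with 5 higher and 5 lower in each genotype. Of them, 1 was called higher in GRf/f (Myh1 at 0.80) and 2 in GRmKO (Myh1 at 0.85 and Myh4 at 0.86), and 0 were called lower. All 5 tested erythroid markers were called lower in both (summed 2229, 2128, 970 and 872 CPM, with Slc4a1 at 0.143 to 1.59 CPM). Their transcripts were short, with a median of 699 bases. Their median changes were -1.23 and -1.24 on the CPM scale, and -0.76 and -0.73 relative to genes of their own length class.

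Adipocyte markers summed to 982, 639, 503 and 312 CPM, macrophage markers to 389, 504, 260 and 189 CPM, and endothelial markers to 419, 497, 330 and 298 CPM. Adipocyte, macrophage and endothelial markers thus were lower in both ob/ob libraries. Of the 6 adipocyte markers 3 were called lower in each genotype, of the 6 macrophage markers 2 in GRf/f and 6 in GRmKO, and of the 5 endothelial markers 1 and 5. Over all tested genes, 11.4% in GRf/f and 19.7% in GRmKO were called lower, and 5.1% and 4.79% higher. The part of these cell types in the subunit values was not tested.

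The balance of paralogs was examined because several subunits have a muscle form and a form of other tissues. As shares of CPM per base of the listed transcript, Cox6a2 made up 94.1%, 94.7%, 94.9% and 96.1% of subunit 6a, Cox7a1 69.3%, 71.9%, 70.8% and 69.9% of subunit 7a, and Cox8b 89.4%, 91.1%, 86.9% and 90.5% of subunit 8. Cox4i2 took 0.799%, 1.02%, 0.753% and 0.679% of subunit 4. The muscle forms predominated in every library, and no share differed between libraries by more than a few percentage points although both paralogs of subunits 7a and 8 were lower with obesity.

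Subunit c of ATP synthase is made from 3 genes with the same mature protein. Per base, Atp5g3 took 28.1%, 29.2%, 31.6% and 32.6% of the 3, Atp5g2 18.4% to 20.8%, and Atp5g1 from 53.0% in lean GRf/f to 46.8% in ob/ob GRmKO. Atp5g1 was the largest share in all libraries, and Atp5g3 was higher in both ob/ob than in both lean libraries.

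Loss of muscle GR was compared within each background to ask whether it moved the same genes. The nuclear-encoded members had median log2 changes of 0.01 (lean) and -0.01 (ob/ob), the mitochondrially encoded members 0.00 and -0.01, and all tested genes 0.04 and -0.04. The sign of these medians changed with the scaling, and with each scaling tried they stayed within 0.06 of 0. In lean mice 44 of 81 and in ob/ob mice 39 of 81 nuclear-encoded members were higher, against 58.2% and 43.7% of all tested genes.

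Among lean mice 0 members were called, with a background of 4.88% for higher and 3.59% for lower. Among ob/ob mice 1 was called lower and 0 higher, with a background of 8.11% and 4.41%. The called member was Ndufa4l2, at 27.7, 29.8, 26.3 and 16.4 CPM, lower by -0.68 (-0.88 to -0.49) in ob/ob GRmKO and differing by 0.10 (-0.06 to 0.27) in lean mice. The low value stood in ob/ob GRmKO and not in the other 3 libraries. In the same comparison the macrophage markers had a median of -0.60 (3 of 6 called lower), the adipocyte markers -0.75 (4 of 6 called lower) and the slow fibre markers 0.55 (4 of 8 called higher). Their part in the value of Ndufa4l2 was not tested.

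Cox8b had the highest change with GR loss among ob/ob mice, at 0.29 (0.24 to 0.35), with 0.17 (0.12 to 0.21) in lean mice, and Sdhb differed by 0.23 and 0.14. The log2 change with obesity was compared between genotypes. The difference (GRmKO minus GRf/f) had a median of 0.00 over the nuclear-encoded members, 79 of 81 (97.5%) lay within 0.25, against a median of -0.07 and 53.5% within 0.25 over all tested genes, which include many of lower counts. The extremes were Ndufa4l2 at -0.78 and Ndufs1, the largest core subunit of complex I, at 0.20. All 13 mitochondrially encoded members lay within 0.25.

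**Figure D5:**
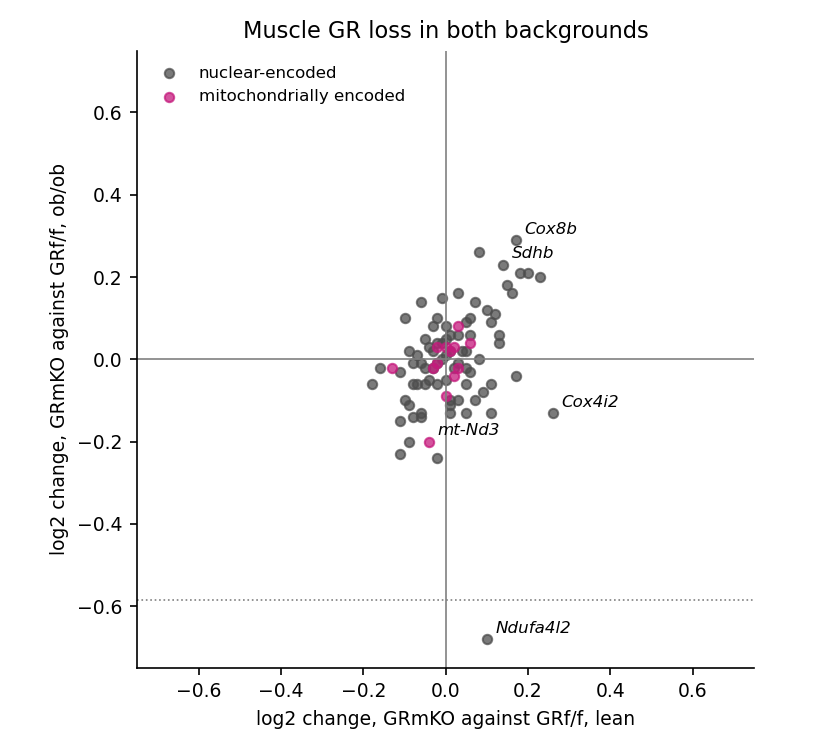
log2 change in CPM with loss of muscle GR in lean (x axis) and ob/ob mice (y axis), 1 point per tested member except 1 that is not drawn, nuclear-encoded in grey and mitochondrially encoded in pink. The dotted line marks a 1.5-fold lower level in ob/ob mice; most points lie near 0 on both axes and Ndufa4l2 lies below the line.

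Other genes of the pathway were counted from lists. Of 46 assembly factors, which build the complexes and are not part of them, 45 were tested with medians of -0.24 and -0.17 with obesity, and 11 in GRf/f and 10 in GRmKO were called lower, with 0 and 1 higher. Those called lower in both included Cox17, the copper chaperone of complex IV (41.5, 37.9, 21.2 and 22.2 CPM), and Uqcc2, a factor of complex III (123, 133, 71.3 and 79.0 CPM). The background of genes called lower was 11.4% and 19.7%. Relative to genes of their own length class the medians of the assembly factors were -0.05 and 0.03. Ecsit was called higher in GRmKO at 0.61, and Uqcc1 lower with GR loss in ob/ob mice at -0.62.

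Of 25 genes of mitochondrial DNA transcription and RNA handling, 23 were tested, with medians of -0.05 and 0.06, 4 and 5 called lower and 0 higher, against the same background of 11.4% and 19.7% called lower. The mtDNA transcription factor Tfam had 25.1, 25.9, 23.4 and 27.1 CPM, the polymerase Polrmt 28.0, 26.3, 31.6 and 27.5 CPM, and Lrpprc, which holds mitochondrial mRNAs, 77.6, 73.7, 85.4 and 87.3 CPM. Slirp, its small partner, had 12.7, 12.8, 5.31 and 6.88 CPM and was called lower in both, and the mtDNA-binding Ssbp1 was at -1.13 and -0.73. Fastkd5, a factor of mitochondrial RNA processing, was also called in both (8.91, 10.5, 5.89 and 5.26 CPM). Mgme1, an exonuclease of mtDNA, was called lower in GRf/f at -0.62, and the poly(A) polymerase Mtpap and the elongation factor Tefm in GRmKO at -0.68 and -0.70. With GR loss in ob/ob mice, Fastkd3 was called higher at 1.07 (2.68 to 5.61 CPM over the 4 libraries) and Mtpap lower at -0.88. The genes called were thus both small and large.

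Of 11 transcriptional regulators, all tested, 1 was called higher and 1 lower in GRf/f and 0 in GRmKO, with medians of -0.16 and 0.00. Of all tested genes, 5.1% were called higher and 11.4% lower in GRf/f, and 4.79% and 19.7% in GRmKO. The coactivator Ppargc1a had 31.6, 29.5, 44.2 and 42.6 CPM, higher by 0.49 and 0.53, under the 1.5-fold limit. Nrf1 (9.54, 7.88, 6.17 and 6.79 CPM) was the regulator called lower, at -0.63, and changed by -0.22 in GRmKO, and Gabpb1, called higher in GRf/f at 0.84, had 2.55 to 6.33 CPM. Esrra differed by 0.15 and 0.00 and Gabpa by -0.10 and -0.22. With GR loss in lean mice Gabpb1 was called higher at 1.31, and Pprc1 and Nrip1, a coactivator and a corepressor, lower at -0.63 and -0.65. In ob/ob mice Esrrg was called higher with GR loss at 0.62. For GR loss, 4.88% of all tested genes were called higher and 3.59% lower in lean mice, and 4.41% and 8.11% in ob/ob mice. These shares are also the background for the calls with GR loss in the other lists.

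The 16 genes of the TCA cycle and pyruvate dehydrogenase had medians of 0.10 and 0.21 and 0 calls with obesity, and summed to 6845, 6730, 7693 and 7842 CPM. Idh2 was called higher with GR loss in ob/ob mice at 0.70 (214, 261, 212 and 346 CPM). The 11 electron carriers and exchangers had medians of -0.12 and -0.11 and 0 calls. Matrix enzymes, with a median length of 2460.5 bases, thus did not follow the nuclear-encoded subunits on the CPM scale.

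The promoters of the nuclear-encoded members were searched for 4 motifs, on both strands of 300 bases (250 before to 50 after the start), in the RefSeq promoter table on GRCm38, where 68 of the 86 matched by symbol. The NRF1 core GCATGCGC was present in 14.7% of the 68 genes and in 3.05% of the 27025 genes in the table, the YY1 motif AAGATGGC in 14.7% and 3.19%, AAGGTCA of the oestrogen-related receptors in 11.8% and 5.38%, and CCGGAAGT of ETS factors such as GABPA in 7.35% and 4.31%. Members with the NRF1 core had a median change with obesity of -0.38 in both genotypes (10 genes) and those without it -0.41 (56 genes). The medians in GRf/f and GRmKO were -0.54 and -0.48 with AAGGTCA (8 genes), -0.51 and -0.55 with CCGGAAGT (5 genes) and -0.45 and -0.41 with the YY1 motif (10 genes), against -0.41 in both without each of them. A match is a run of letters and not a measured site.

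The 250 bases before the start are shown for 3 members that hold the NRF1 core, since they range from a large to a small change with obesity, with motif matches in capitals (in Atp5k 2 overlapping matches, and in Atp5l also AAGGTCA on the other strand). Atp5l lies at chr9:44920743-44920992 on the minus strand (-0.77 and -0.70), Atp5k, subunit e of ATP synthase, at chr5:108434400-108434649 on the minus strand (-0.53 and -0.41), and Sdhb at chr4:140961021-140961270 on the plus strand (-0.30 and -0.21), all in GRCm38.
Atp5l: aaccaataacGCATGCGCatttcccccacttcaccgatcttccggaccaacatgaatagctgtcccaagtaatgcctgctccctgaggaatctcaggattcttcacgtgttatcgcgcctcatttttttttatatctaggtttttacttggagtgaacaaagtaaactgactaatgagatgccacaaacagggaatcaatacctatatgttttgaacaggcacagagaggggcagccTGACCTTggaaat
Atp5k: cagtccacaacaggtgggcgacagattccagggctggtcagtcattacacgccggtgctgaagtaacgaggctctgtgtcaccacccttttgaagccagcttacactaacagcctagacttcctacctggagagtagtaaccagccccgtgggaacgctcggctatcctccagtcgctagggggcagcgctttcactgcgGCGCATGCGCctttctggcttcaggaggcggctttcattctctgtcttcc
Sdhb: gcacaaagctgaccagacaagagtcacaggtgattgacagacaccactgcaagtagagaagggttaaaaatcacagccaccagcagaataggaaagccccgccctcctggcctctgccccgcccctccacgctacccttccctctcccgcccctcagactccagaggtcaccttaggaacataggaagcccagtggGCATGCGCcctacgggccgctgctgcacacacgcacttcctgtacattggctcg

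Several members overlap other genes. On the same strand, Cox4i1, Ndufb2, Ndufb8 and Ndufb9 overlap readthrough or predicted genes in the annotation, Ndufa13 overlaps Yjefn3, and Atp5o overlaps a further entry of the same name, so their values are uncertain where reads are shared. The extreme members Cox8b (chromosome 7, 140898945 to 140900446, minus strand), Ndufc1 (chromosome 3, 51404677 to 51408988, minus strand) and Atp5e (chromosome 2, 174461072 to 174464105, minus strand) overlap no other gene on the same strand.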

How the data were processed

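RNA-seq of gastrocnemius muscle was available as 1 library per group (lean or ob/ob, GRf/f or GRmKO, pooled RNA of 3 mice). From 100-bp paired-end reads, the authors estimated transcript abundance by Salmon v1.2.1 on the protein-coding set of GENCODE, and brought it to gene level by tximport (length-scaled TPM) under R v3.5.0. The deposited values are expected counts for 22252 genes (mm10), and of duplicated names the entry with the largest total was kept. Salmon divides by an effective length set from the fragment lengths of a library, so values of short transcripts depend most on it. Fragment lengths and the RNA selection are not given in the sources used here.

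Expected counts were scaled to CPM and compared in 4 pairs of libraries with Python 3.11.15 (pandas 2.3.3, statsmodels 0.14.6), without a test. Tested genes had a mean of at least 50 expected counts and were above 0 in all libraries, and a fold of 1.5 was the limit for a call. The script was tested on simulated data. edgeR 4.0.16 and DESeq2 1.42.0 (R 4.3.3) gave scaling factors only, on rounded expected counts. Lengths, positions and overlaps were from GENCODE on GRCm38, through the 1 transcript listed per gene in the files. The genes named were each mitochondrially encoded member, each called member, the highest and lowest of each complex, the paralog pairs, members under the limit, and called genes and 7 fixed regulators of the pathway lists. Members and lists were chosen with earlier results of these data known, and the comparison by transcript length was added after the values were seen. Results for 1 member are not reported by name here, and it stays in the counts and medians. Figures were drawn with matplotlib 3.10.9.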

Additional observations from a re-analysis of the deposited data

Results flagged for a closer look

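The change with obesity had opposite signs in the 2 genotypes for 5 of 81 nuclear-encoded (6.17%) and 1 of 13 mitochondrially encoded members, against 27.3% of all tested genes. The shares are not like for like. All tested genes include many of lower counts and had medians of -0.11 and -0.20, against -0.41 in both genotypes for the nuclear-encoded members. For 2 members with opposite signs that are reported by name, both changes lay beyond their counting intervals. None of these differences was tested, since each group was 1 library. Ndufs1, a core subunit of complex I, changed by -0.07 in GRf/f and by 0.13 in GRmKO (log2), a difference of 0.20. mt-Nd2 changed by 0.03 and -0.06, a difference of -0.09. These opposite signs depended on the scaling. Relative to the median of all tested genes, Ndufs1 stood at 0.03 and 0.33, and mt-Nd2 at 0.14 in both genotypes. The changes of both members were under the 1.5-fold limit in both genotypes.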

How the results depend on the processing

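No paired analysis was possible because each group was 1 library, and for the same reason no library could be left out. The median change of the nuclear-encoded subunits with obesity, -0.41 in GRf/f and in GRmKO on the CPM scale, was -0.30 and -0.21 with edgeR TMM factors, -0.29 and -0.20 with DESeq2 size factors, -0.31 and -0.22 with upper quartile scaling, and -0.30 and -0.22 relative to all tested genes. It was -0.33 in GRmKO with library sizes that leave out the 50 most abundant genes. Relative to other genes of the same length class, chosen after seeing the data, it turned to 0.09 and 0.13, and that of GR loss in lean mice to -0.08. With upper quartile scaling GR loss in ob/ob mice gave 0.06.

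The nuclear-encoded subunits called lower with obesity, 20 in GRf/f and 23 in GRmKO, were 9 and 8 with TMM, 9 and 8 with DESeq2 factors, 10 and 9 with upper quartile scaling, 51 and 51 at a lower fold limit, 0 and 3 at 2-fold, and 1 and 1 within length classes. The 1 call with GR loss in ob/ob mice became 2 at that lower limit, and 0 at 2-fold or with a mean of at least 2000 expected counts, a limit that Ndufa4l2 does not reach.

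The log2 change of the ratio with obesity (GRf/f, GRmKO) was 0.44 and 0.45 as a difference of medians, 0.41 and 0.41 per transcript length, 0.31 and 0.33 without mt-Co1 to mt-Co3, and -0.03 and -0.01 with nuclear-encoded members of at least 1500 bases only. With GR loss (lean, ob/ob) these were -0.01 and -0.01, -0.01 and 0.00, -0.01 and 0.01, and 0.05 and 0.07. Why the obesity values moved with transcript length was not tested. Of 45 calls of single members, 18 stayed past 1.5-fold with TMM, 18 with DESeq2 factors, 20 with upper quartile scaling, 36 with library sizes leaving out the 50 most abundant genes and 44 with those leaving out the mitochondrially encoded genes, and 0 changed sign.

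Depth limited Cox4i2, Ndufa4l2 and the 5 members under the count limit. Counting error was otherwise small, and the spread between mice is unknown.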
